A study of Mus musculus and Homo sapiens
Mus musculus with 14 samples.

Results

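The genes described here are the 8 that encode the subunits of the glycine receptor (Glra1, Glra2, Glra3, Glra4 and Glrb), the scaffold protein gephyrin (Gphn) and the subunits of the GABA-B receptor (Gabbr1 and Gabbr2). They were chosen by symbol, and all 8 were found among the 24460 genes of the retinal layer table and among the 18415 genes of the amacrine cell table. Light-Seq attaches a DNA barcode by light to cDNA made inside fixed tissue, so that transcripts can be assigned to the region that was illuminated. The retinas came from wild-type CD1 IGS mice in the third postnatal week, with no transgene and no treatment. In the first experiment the outer nuclear layer (ONL), the bipolar cell layer (BCL) and the ganglion cell layer (GCL) of each of 4 sections of a single animal were barcoded. In the second, single amacrine cells that stained for tyrosine hydroxylase (TH+), pooled from a few cells per section, and neighbouring amacrine cells without the stain (TH-) were barcoded in 5 sections. For the amacrine sections the labels give no number of animals, and the study's methods speak of one source animal. Each library is the barcoded region of one section, the study treats sections as technical replicates, and p-values measure the spread between sections.

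Fast inhibition in the retina uses glycine as well as GABA. The glycine receptor is a pentameric chloride channel, built from one or more kinds of alpha subunit, which carry the glycine binding site, and the beta subunit Glrb, which binds gephyrin and so anchors the receptor at synapses. The 4 alpha subunits differ in their kinetics and are known to sit at different retinal synapses. The GABA-B receptor is a G-protein-coupled receptor and an obligate pair, in which Gabbr1 binds GABA and Gabbr2 couples to the G protein. It closes calcium channels, opens potassium channels and acts slowly.

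On the mouse assembly GRCm39, Glra1 lies on chromosome 11 (55405064 to 55499422, minus strand), Glra2 on chromosome X (163911666 to 164110678, minus strand), Glra3 on chromosome 8 (56393446 to 56583293, plus strand) and Glra4 on chromosome X (135658423 to 135680890, minus strand). Glrb lies on chromosome 3 (80749136 to 80882860, minus strand), Gphn on chromosome 12 (78272504 to 78732541, plus strand), Gabbr1 on chromosome 17 (37356703 to 37387265, plus strand) and Gabbr2 on chromosome 4 (46662244 to 46991971, minus strand).

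Values are counts of unique molecular identifiers (UMIs), each of which marks a distinct cDNA molecule, or CPM, the count divided by the UMI total of the library and scaled to 1000000. GCL libraries held 585655 to 785013 UMIs, BCL libraries 193869 to 208437 and ONL libraries 310228 to 801105. TH+ libraries held 30317 to 87449 UMIs and TH- libraries 134394 to 200344. A count of 0 allows 3 counts, which is 14.4 to 15.5 CPM in the BCL and 34.3 to 99.0 CPM in TH+ cells (counting error alone). Rod markers made up 5.97 to 7.38% of ONL UMIs, bipolar markers 0.668 to 0.744% of BCL UMIs and ganglion cell markers 0.685 to 0.769% of GCL UMIs. Each layer also held UMIs of the markers of other layers. Rod markers made up 1.26 to 2.13% of the BCL and 0.463 to 0.796% of the GCL. The GCL also holds displaced amacrine cells, and 8 amacrine markers together made up 0.135 to 0.152% of its UMIs. In a tissue region, fewer cells of a type and less RNA per cell cannot be told apart. Th, the gene of the stained enzyme, stood at 303 to 659.7 CPM in TH+ libraries and 11.6 to 49.9 CPM in TH- libraries.

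The alpha subunits are close relatives, so a short cDNA read has to fall where they differ. The coding sequences of the 4 alpha subunits were 70.3 to 73.4% identical in pairs, and 54.6 to 57.0% identical to Glrb. The longest run of identical bases that a pair of alpha subunits shared was 26 bases. Stretches of 60 bases were searched that had no gap and lay within a single exon in each alpha subunit and in Glrb. The one with the most bases the same in all 4 alpha subunits is shown for Glra1, Glra2 and Glra4, with the same stretch of Glrb. All 4 alpha subunits shared 48 of the 60 bases. Capitals mark the 12 positions at which the alpha subunits were not all the same, and in Glrb each base that departs from the one all alpha subunits share or that lies at such a position. The stretches are coding exon sequence on the minus strand of GRCm39, at chr11:55418211-55418270, chrX:164035346-164035405, chrX:135668063-135668122 and chr3:80763160-80763219 in turn.
Glra1: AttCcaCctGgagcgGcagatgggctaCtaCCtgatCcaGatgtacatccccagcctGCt
Glra2: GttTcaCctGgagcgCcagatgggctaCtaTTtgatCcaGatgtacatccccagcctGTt
Glra4: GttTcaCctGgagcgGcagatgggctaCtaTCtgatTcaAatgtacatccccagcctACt
Glrb: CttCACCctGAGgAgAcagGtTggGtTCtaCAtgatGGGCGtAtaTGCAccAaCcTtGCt
Glra2 and Glra4 each differed from Glra1 at 6 of these bases, and Glrb at 25. Of all runs of 32 bases in the exons of each of the 8 genes, 97.6 to 100% occurred at a single place in the genome. Exon bases shared with a gene on the same strand numbered 0 for each of the 8 genes. Bases shared with a gene on the other strand numbered 191 in Glra1, 186 in Glra4, 116 in Glrb, 796 in Gphn, 494 in Gabbr1 and 52 in Gabbr2.

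Which layers hold the transcripts of each receptor subunit is the question of the layer comparisons. Glra1 was the main alpha subunit of the BCL, and the other 7 genes were highest in the GCL. Glra1 had 33, 40, 26 and 30 UMIs in the 4 BCL libraries, which is 170.2, 192, 132 and 148 CPM for sections 1 to 4. The GCL libraries held 34.4, 39.0, 43.0 and 46.1 CPM, although their UMI totals were larger. The ONL libraries held 17.5, 6.92, 9.13 and 16.1 CPM. The 3 layers did not overlap: every BCL library was above every GCL library, and every GCL library was above every ONL library. The mean was 161 ± 26.04 CPM in the BCL, 40.6 ± 5.08 in the GCL and 12.4 ± 5.18 in the ONL (SD, n = 4). In the quasi-likelihood test of edgeR, Glra1 was 3.54-fold higher in the BCL than in the GCL (log2 fold change 1.82 ± 0.21 SE, adjusted p = 1.2e-10). It was 10.2-fold higher in the BCL than in the ONL (log2 fold change of ONL minus BCL -3.34 ± 0.27, adjusted p = 1.04e-15) and 2.87-fold higher in the GCL than in the ONL (adjusted p = 8.46e-06). Of all 11324 genes tested, 16.1% were called higher in the BCL than in the GCL, and Glra1 was the 1 gene of the 8 among them. Muller glia, whose cell bodies share the BCL with bipolar cells, contributed markers at 0.708 to 0.791% of BCL UMIs, and their part in the Glra1 level was not tested.

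**Figure D1:**
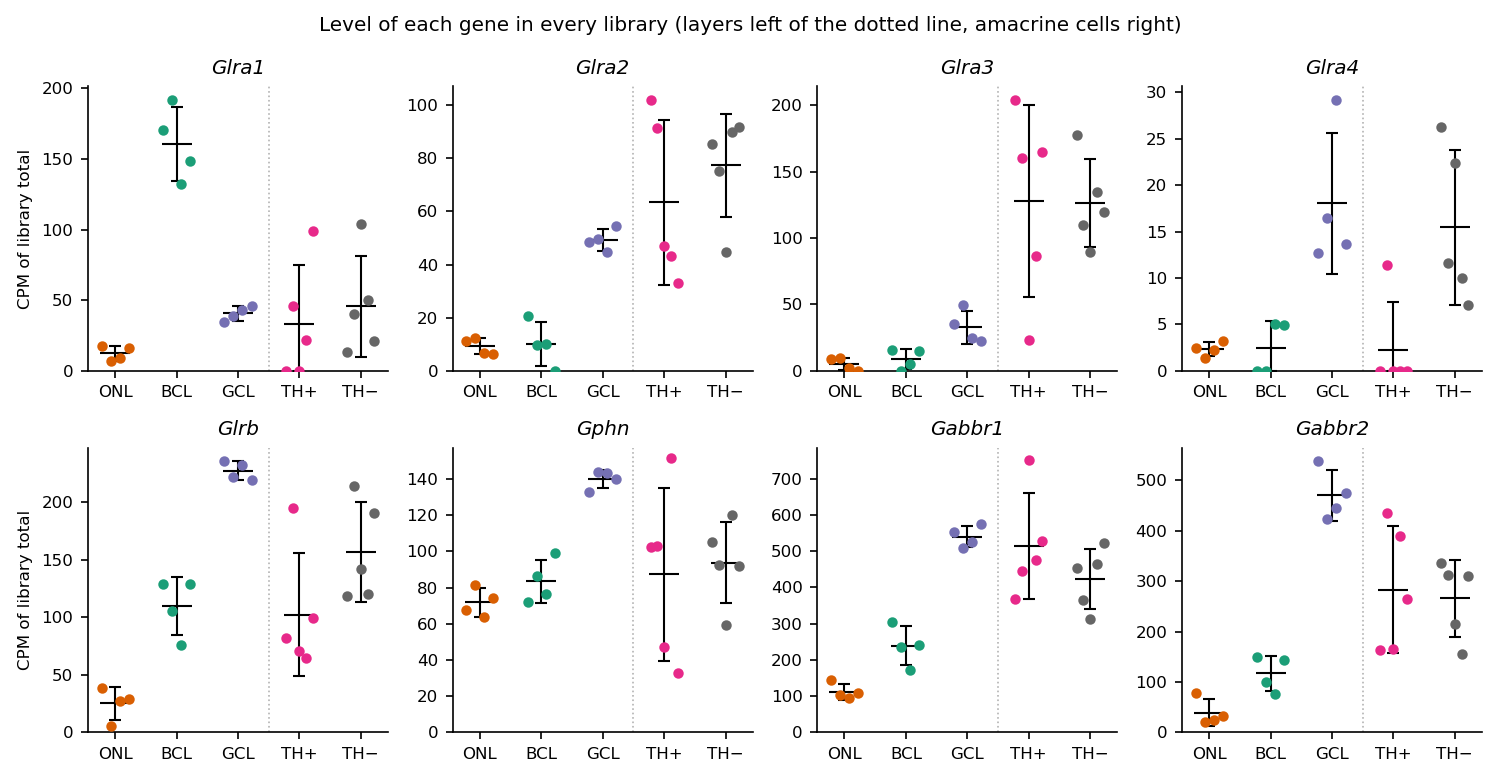
CPM of the library total (y axis, one scale per gene) in each library of the ONL, BCL and GCL (4 sections each) and of TH+ and TH- amacrine cells (5 sections each), with the mean as a horizontal line and the SD as whiskers, which end at 0 where the SD exceeds the mean. The 4 BCL points of Glra1 lie between 132 and 192 CPM, above every ONL and GCL point, while the other 7 genes are highest among the layers in the GCL.

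The other 3 alpha subunits were mainly GCL transcripts. Glra2, the subunit of much of the early glycine receptor of the brain, stood at 48.4, 49.5, 44.6 and 54.6 CPM in the GCL, from 29 to 38 UMIs per library. In the BCL it had 4, 2, 2 and 0 UMIs, which is at most 20.6 CPM, and in the ONL 6.45 to 12.4 CPM. All GCL libraries lay above all others, and Glra2 was 5.4-fold higher in the GCL than in the BCL (adjusted p = 3.17e-06) and 4.25-fold higher than in the ONL (adjusted p = 2.16e-08). Without section 1 the difference from the BCL was 8.13-fold. Glra3 was more variable among sections: 35.7, 49.5, 24.6 and 22.2 CPM in the GCL, 15.5, 0, 5.08 and 14.8 CPM in the BCL and 8.74, 9.68, 2.28 and 0 CPM in the ONL. The GCL again did not overlap the other layers. Glra3 was 4.18-fold higher in the GCL than in the BCL (adjusted p = 0.0011) and 4.4-fold higher than in the ONL (adjusted p = 6.17e-06). The first of these was 2.64-fold without section 2 (adjusted p = 0.044), and the ratio of the summed levels, 3.83, had a 95% counting interval of 1.79 to 9.8. Glra4 was the scarcest subunit by count, with 10, 11, 19 and 8 UMIs in the GCL (12.7 to 29.2 CPM), 0, 0, 1 and 1 in the BCL, and 2, 1, 1 and 1 in the ONL. It passed the low-count filter through its GCL counts, so a test of the GCL against another layer was favoured in advance and its p is not given. Over the summed libraries, the Glra4 level in the GCL was 7.15 times that in the BCL, with a 95% counting interval of 1.88 to 60.8, and 8.11 times that in the ONL (3.25 to 26.1). The fitted difference between the GCL and BCL was 7.29-fold, and 11.4-fold without section 4. The intervals cover counting error alone, and these Glra4 values are a description and not a test of the layers.

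Between the ONL and the BCL these 3 subunits could not be told apart at this depth. The log2 fold change of ONL minus BCL was 0.34 ± 0.57 for Glra2 (adjusted p = 0.694), -0.07 ± 0.73 for Glra3 (adjusted p = 0.957) and 0.14 ± 1.11 for Glra4 (adjusted p = 0.943). For Glra3 and Glra4, 2 standard errors on each side reach past a 2-fold difference in both directions.

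Dividing by the deposited exon length, which is 2.414 kb for Glra1, 3.15 kb for Glra2, 9.208 kb for Glra3 and 2.01 kb for Glra4, allows the subunits to be compared with one another within a library. In the BCL, Glra1 made up 89.5, 96.3, 89.7 and 93.8% of the summed alpha level per kb, and the other 3 subunits together had 8, 7 and 2 UMIs against 129 of Glra1. In the GCL, Glra1 (37.4 ± 3.00%) and Glra2 (35.0 ± 4.50%) shared most of the level, with 19.6 ± 6.76% for Glra4 and 8.07 ± 3.25% for Glra3 (SD, n = 4). The 2 leading GCL subunits differed by less than their spread: 16.8 ± 2.10 CPM per kb for Glra1 and 15.6 ± 1.32 for Glra2. In the ONL the Glra1 share ranged from 33.5 to 64.7%, on 8 to 32 alpha UMIs per library. The order within the GCL rests on the length. With the exon bases of the later annotation, Glra1 held 37.8 ± 3.48%, Glra2 30.0 ± 4.31%, Glra4 23.0 ± 7.48% and Glra3 9.26 ± 3.73%. As plain shares of UMIs, Glra2 led with 35.1%, before Glra1 with 28.9%, Glra3 with 23.2% and Glra4 with 12.8%. Glra1 kept the largest share of the BCL on all 3 bases, at 92.3, 92.5 and 88.2%. These shares are a description and were given no test.

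**Figure D2:**
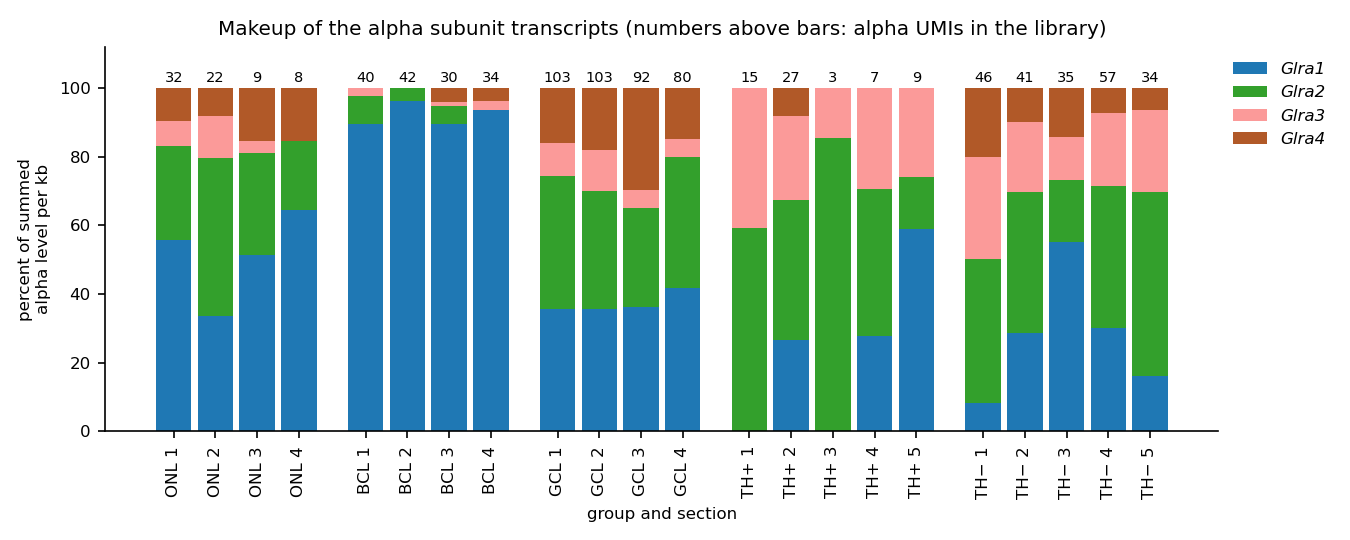
Share of each alpha subunit in the summed alpha level per kb of exon (y axis, percent), one bar per library, grouped by layer or amacrine group; the number above a bar is the count of alpha UMIs behind it. Glra1 takes 89.5 to 96.3% in the 4 BCL libraries and 35.5 to 41.8% in the 4 GCL libraries, and the TH+ bars rest on 3 to 27 UMIs.

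Glrb, the beta subunit common to synaptic glycine receptors, followed the GCL rather than Glra1. It stood at 236, 222, 232 and 219 CPM in the GCL, at 129, 106, 76.2 and 129 CPM in the BCL and at 38.7, 5.53, 27.4 and 29.0 CPM in the ONL. The layers were in the order GCL, BCL, ONL with no overlap. Glrb was 2.32-fold higher in the GCL than in the BCL (log2 fold change of BCL minus GCL -1.22 ± 0.19, adjusted p = 5.47e-07), 8.13-fold higher in the GCL than in the ONL (adjusted p = 2.83e-19) and 3.5-fold higher in the BCL than in the ONL (adjusted p = 5.25e-07). Per kb of exon, the summed alpha level was 0.925 ± 0.0930 times the Glrb level in the GCL and 3.15 ± 0.652 times in the BCL (SD, n = 4). The lowest BCL ratio was 2.37 and the highest GCL ratio 0.986, so the 2 layers did not overlap. The size of these ratios rests on the length taken for Glrb: with the later annotation, which gives Glrb 10990 exon bases instead of 4655, they were 1.86 ± 0.201 and 6.36 ± 1.30. The ONL ratio ran from 1.25 to 7.20, the highest in section 2, where Glrb had 4 UMIs.

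Gphn, which encodes the scaffold under glycine and many GABA-A receptors and also acts in the synthesis of the molybdenum cofactor in every tissue, varied least between layers. Its levels were 132, 144, 143 and 140.0 CPM in the GCL, 72.2, 86.4, 76.2 and 98.9 CPM in the BCL and 67.4, 81.6, 63.9 and 74.1 CPM in the ONL. The GCL stood above the other 2 layers in all 4 sections, by 1.87-fold over the BCL (adjusted p = 5.87e-05) and 1.72-fold over the ONL (adjusted p = 5.01e-06). The ONL and BCL values overlapped (log2 fold change of ONL minus BCL 0.12 ± 0.21, adjusted p = 0.697). The sign of that last difference depended on the scaling: by CPM of the library total Gphn was lower in the ONL in 4 of 4 sections, and with library totals in the fit it was -0.22. Per kb, the ratio of Gphn to Glrb was 0.766 ± 0.0485 in the GCL, 0.977 ± 0.225 in the BCL and between 2.16 and 18.3 in the ONL. With the later lengths it was 0.541 ± 0.0342, 0.6902 ± 0.159 and between 1.53 and 12.9.

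**Figure D3:**
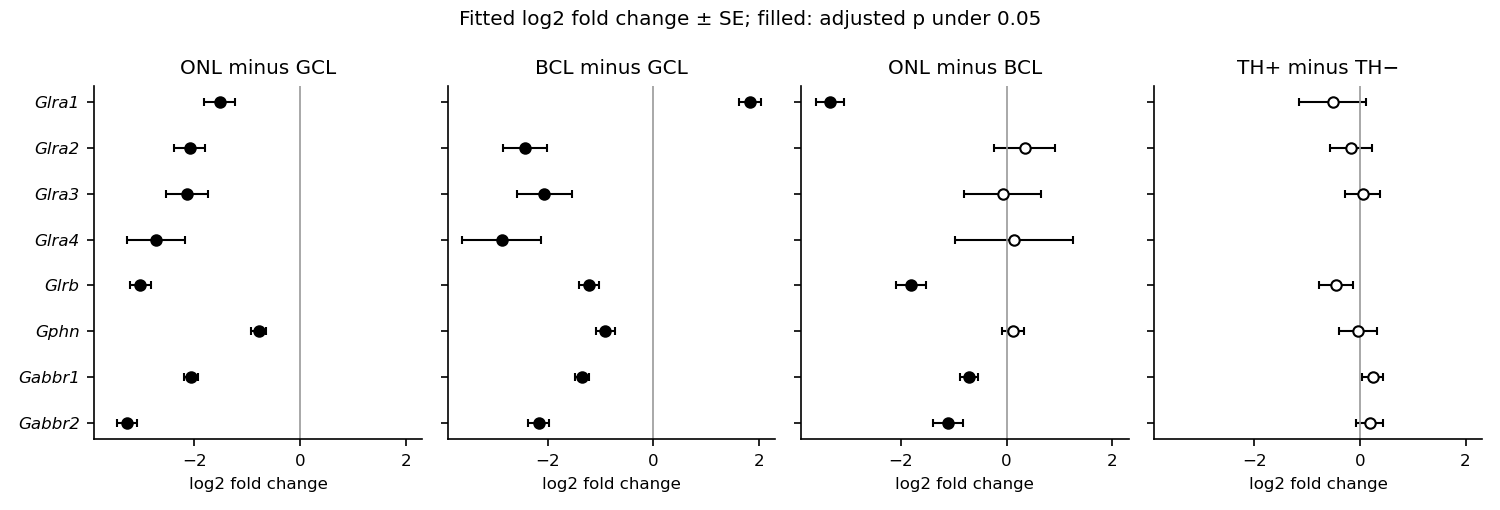
Fitted log2 fold change (x axis) of each gene in the 3 layer comparisons and in TH+ against TH- cells, with the SE as whiskers; filled points passed an adjusted p of 0.05 and open points did not. All 8 genes lie left of 0 for ONL minus GCL, Glra1 alone lies right of 0 for BCL minus GCL at 1.82, and no point of TH+ minus TH- is filled. Glra4 entered the layer tests through its GCL counts, so its filled points are not read as calls. It was too scarce to test in the amacrine cells.

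The 2 GABA-B subunits were among the better covered genes of the 8. Gabbr1 stood at 553, 509.6, 524 and 574 CPM in the GCL, 304, 235, 173 and 242 CPM in the BCL and 144, 102, 93.6 and 109.6 CPM in the ONL. Each layer was separate from the next. Gabbr1 was 2.54-fold higher in the GCL than in the BCL (adjusted p = 1.03e-11), 4.18-fold higher in the GCL than in the ONL (adjusted p = 4.08e-20) and 1.64-fold higher in the BCL than in the ONL (adjusted p = 0.000479). Gabbr2 stood at 539, 423, 444 and 475 CPM in the GCL, 149.6, 100.7, 76.2 and 143 CPM in the BCL and 78.6, 20.7, 25.1 and 32.2 CPM in the ONL. Its GCL libraries were separate from the rest, while ONL section 1 overlapped the lowest BCL library. Gabbr2 was 4.5-fold higher in the GCL than in the BCL (log2 fold change of BCL minus GCL -2.17 ± 0.20, adjusted p = 9.14e-14) and 9.71-fold higher than in the ONL (adjusted p = 4.83e-22). It was 2.16-fold higher in the BCL than in the ONL (adjusted p = 0.00112), in 4 of 4 sections. Without the ONL library of section 1, which had the highest ONL level, the difference from the BCL was 3.75-fold and that from the GCL 16.9-fold. Ganglion cell markers made up 0.0739, 0.0369, 0.0436 and 0.0722% of ONL UMIs in sections 1 to 4, and their part in the ONL level of Gabbr2 was not tested.

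Per kb of exon the 2 subunits were level in the GCL, at 69.6 ± 3.71 CPM per kb for Gabbr1 and 70.3 ± 7.56 for Gabbr2 (SD, n = 4). The ratio of Gabbr1 to Gabbr2 was 0.995 ± 0.0749 in the GCL, 1.79 ± 0.250 in the BCL and 2.99 ± 1.102 in the ONL. Every BCL ratio (1.46 to 2.01) was above every GCL ratio (0.884 to 1.04). The ONL ratios (1.57 to 4.25) overlapped those of the BCL. That the subunits were level in the GCL rests on the length. With the later lengths the ratio was 1.019 ± 0.0767 in the GCL and 1.84 ± 0.256 in the BCL. As plain UMIs it was 1.155 ± 0.087 in the GCL, with a range of 1.03 to 1.21, and 2.08 ± 0.291 in the BCL.

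**Figure D4:**
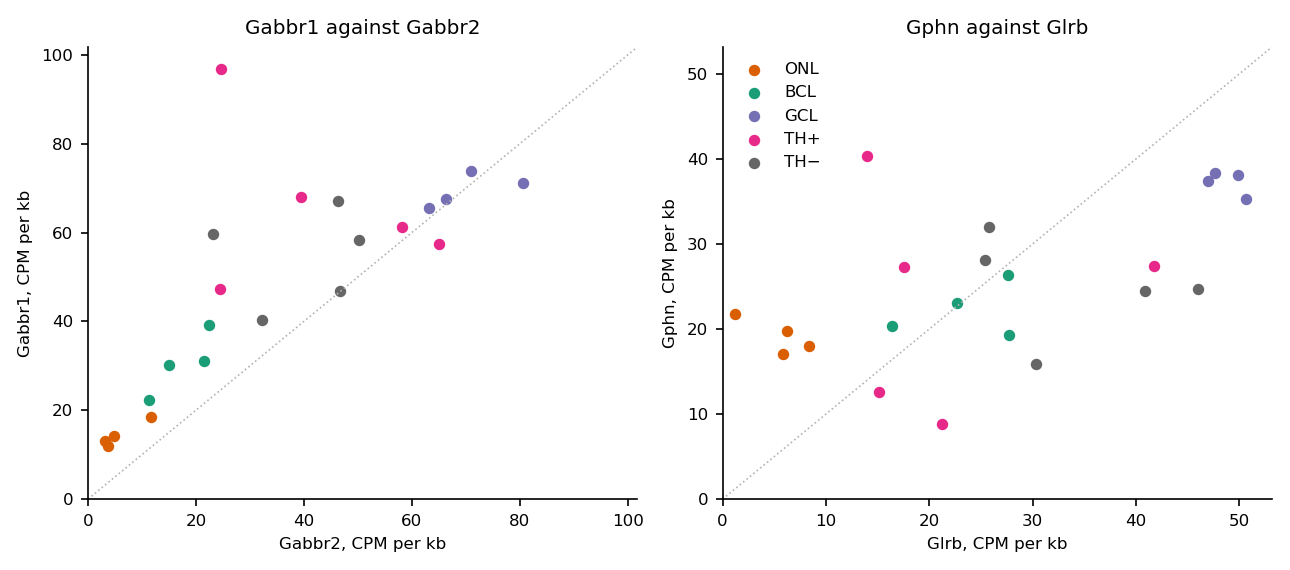
Level per kb of deposited exon length (CPM per kb on both axes) of Gabbr1 against Gabbr2 and of Gphn against Glrb, one point per library, with the dotted line where the 2 genes are equal. GCL libraries lie near the line for the GABA-B pair, at ratios of 0.884 to 1.04, and BCL and ONL libraries lie above it; for Gphn and Glrb the GCL libraries lie below the line and the ONL libraries above it.

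Without Glra4, 7 of 7 genes were called higher in the GCL than in the ONL, against 32.2% of all genes tested. In the BCL against the GCL, 6 of 7 were called higher in the GCL (20.4% of all genes). In the ONL against the BCL, 4 of 7 were called, against 36.7% of all genes in either direction. All 4 (Glra1, Glrb, Gabbr1 and Gabbr2) were higher in the BCL, as were 18.2% of all genes. The median log2 fold change of the 7 was -2.09 for ONL minus GCL, -1.35 for BCL minus GCL and -0.72 for ONL minus BCL, beside medians of 0.00, -0.02 and 0.09 over all 11324 genes. Without TMM scaling, using library totals, the median of all genes moved by -0.17, 0.17 and -0.34 in turn. That shift took the share of calls that were higher in the ONL than in the BCL from 50.5 to 29.3% (40.2% with DESeq2), and the share higher in the BCL than in the GCL from 44.1 to 55.7%, while the counts of called genes among the 7 stayed at 7, 7 and 4.

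Glra1, highest in the BCL, had a pattern across the 12 layer libraries that differed from that of the other genes. The Pearson correlation of log2 CPM between Gabbr1 and Gabbr2 was 0.987, between Glrb and Gabbr2 0.935 and between Glra4 and Gphn 0.887. With Glra1 the correlation was 0.55 for Glrb and between -0.17 and 0.33 for the other 6. The value for Glrb does not set Glra1 apart, since Glrb correlated at 0.534 with Glra2, 0.588 with Gphn and 0.597 with Glra3. These points share layer, section and depth, and the values are a description. The genes most like Glra1 in this measure were Gpr37 (r = 0.988), Nrxn3 (0.987) and Ptprd (0.984). Those most like Glrb were Cntn6 (0.984), Lrrc8c (0.984) and Ppp1r16b (0.983). Epha6 (0.963), Tuba4a (0.96) and Sh2d3c (0.952) were most like Glra2, and Tgoln1 (0.947), Sema3a (0.946) and Eloc (0.946) most like Glra3. For Glra4 they included Cyp2s1 (0.973) and Tspan18 (0.954), and for Gphn Tmem229a (0.973), Trp53bp1 (0.969) and Calb2 (0.968). Gabbr1 was closest to Nrbp2 (0.992), Chrna6 (0.989) and Atp2b3 (0.989), and Gabbr2 to Atp2b3 (0.992), Slc8a1 (0.991) and Capns1 (0.989).

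The promoters of Gabbr1, Gabbr2 and Glrb, the genes that moved together most closely across layers, are printed as RefSeq sequence of GRCm38.p6, from 250 bases before to 50 bases after the gene start. Their positions are chr17:37045716-37046015 on the plus strand, chr4:46991665-46991964 on the minus strand and chr3:80913611-80913910 on the minus strand. Capitals mark each CG pair.
Gabbr1: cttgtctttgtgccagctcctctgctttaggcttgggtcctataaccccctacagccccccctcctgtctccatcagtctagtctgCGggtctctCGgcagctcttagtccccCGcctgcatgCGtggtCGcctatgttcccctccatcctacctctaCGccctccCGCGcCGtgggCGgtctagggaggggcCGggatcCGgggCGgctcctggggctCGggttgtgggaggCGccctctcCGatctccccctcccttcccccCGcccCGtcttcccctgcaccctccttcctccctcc
Gabbr2: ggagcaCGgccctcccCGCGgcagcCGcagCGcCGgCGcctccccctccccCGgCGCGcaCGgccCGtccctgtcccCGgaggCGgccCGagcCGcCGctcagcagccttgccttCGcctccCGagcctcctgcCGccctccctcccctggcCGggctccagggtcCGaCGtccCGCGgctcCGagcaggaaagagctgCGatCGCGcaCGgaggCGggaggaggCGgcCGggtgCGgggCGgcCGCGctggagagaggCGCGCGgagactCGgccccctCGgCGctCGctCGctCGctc
Glrb: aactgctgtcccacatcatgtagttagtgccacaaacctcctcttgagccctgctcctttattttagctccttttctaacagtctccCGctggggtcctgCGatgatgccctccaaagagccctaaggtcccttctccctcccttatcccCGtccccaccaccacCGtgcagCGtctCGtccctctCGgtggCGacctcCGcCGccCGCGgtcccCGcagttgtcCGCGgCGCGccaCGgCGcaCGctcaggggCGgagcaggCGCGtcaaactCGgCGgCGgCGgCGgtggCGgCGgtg
These windows held 18, 46 and 30 CG pairs, and that of Gphn 42, beside a median of 7 over 32534 RefSeq promoters of the same length. The promoters of Glra2 and Glra4, which lie on the X chromosome, held 9 and 3. The GC box GGGCGG, searched on both strands, occurred 3 times for Gabbr1 and 2 times each for Gabbr2 and Glrb, and in 35.9% of all promoters. The TATA sequence TATAAA, also searched on both strands, was found in the window of Glra2 among the 7 genes with an entry (13.6% of all promoters). The E-box CANNTG was present once each in the Glrb and Glra3 windows (72.3% of all promoters), and TAATCC, the core that photoreceptor homeodomain proteins bind, was in none of the 7 (7.06% of all promoters). A match is a description of the letters in these windows.

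The partners of gephyrin fell on the GCL side as well. Of 16 genes listed, 16 were tested, and 11 were called higher in the GCL than in the ONL (32.2% of all genes), with a median log2 fold change of -1.33 for ONL minus GCL, and 0 the other way. In the BCL against the GCL, 7 were called higher in the GCL (20.4% of all genes) and 2, Insyn2a and Slitrk3, higher in the BCL (16.1% of all genes), with a median of -0.73. Kif5a, a kinesin heavy chain of neurons, stood at 1106 ± 59.5 CPM in the GCL, 195 ± 41.0 in the BCL and 107 ± 39.9 in the ONL, and was 9.22-fold higher in the GCL than in the ONL (adjusted p = 3.76e-26). Kif5c, its close relative, was 6.6-fold higher in the GCL than in the ONL (adjusted p = 4.31e-22). Iqsec3, an exchange factor that binds gephyrin, was 1.92-fold higher in the GCL than in the BCL (adjusted p = 1.24e-07). In the ONL against the BCL, 6 of the 16 were called, beside 36.7% of all genes in either direction. All 6 were higher in the BCL (18.2% of all genes), and library totals raised the count to 10.

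Genes that handle glycine and set the chloride gradient moved in both directions. Of 8 listed, 7 were tested. Gldc, Shmt2, Slc12a2 and Slc6a9 were called higher in the ONL than in the GCL, and Slc12a5, Slc32a1 and Slc6a5 higher in the GCL. Of all genes tested, the ONL was called higher for 29.3% and the GCL for 32.2%. In the BCL against the GCL, 3 (Gldc, Shmt2 and Slc12a2) were called higher in the BCL (16.1% of all genes) and 2 (Slc32a1 and Slc6a5) higher in the GCL (20.4%); the call of Slc6a5 was lost with DESeq2, with its size factors and with library totals. Their median log2 fold change was 0.60 for ONL minus GCL, 0.08 for BCL minus GCL and -0.37 for ONL minus BCL. Slc12a5 encodes KCC2, the chloride exporter of mature neurons. It stood at 1375 ± 178 CPM in the BCL, 1158 ± 77.1 in the GCL and 463 ± 50.4 in the ONL, and the ONL was below the BCL by 2.39-fold (adjusted p = 1.47e-13) and below the GCL by 2.26-fold (adjusted p = 8.59e-14). Slc32a1, the vesicular transporter that loads GABA and glycine, was 3.79-fold higher in the GCL than in the BCL (adjusted p = 2.35e-07). Gldc, which cleaves glycine in mitochondria, was 10.2-fold higher in the BCL than in the GCL (49.8 ± 16.3 against 4.17 ± 3.46 CPM, adjusted p = 1.6e-08). Shmt2, which interconverts serine and glycine, was 2.79-fold higher in the BCL than in the GCL (adjusted p = 1.64e-05). In the ONL against the BCL, 2 genes (Gldc and Slc12a5) were called higher in the BCL, beside 18.2% of all genes, and Slc6a9, the glycine transporter GlyT1, higher in the ONL, beside 18.5%. The call of Slc6a9 was lost with DESeq2 and with library totals in both ONL comparisons, and here also with DESeq2 size factors.

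The partners and effectors of the GABA-B receptor were mostly highest in the GCL, as its subunits were. Of 17 listed, 16 were tested, and 15 were called higher in the GCL than in the ONL, beside 32.2% of all genes (median log2 fold change of ONL minus GCL -2.58). In the ONL against the BCL 10 were called, all higher in the BCL (18.2% of all genes, median -1.32). In the BCL against the GCL 10 were higher in the GCL (20.4% of all genes) and 1 in the BCL (16.1%), with a median of -1.29. The call of Kcnj3, a potassium channel subunit, was lost there with DESeq2. Cacna1a, the pore of the P/Q-type calcium channel, stood at 449 ± 41.7 CPM in the GCL and 66.4 ± 13.98 in the BCL (7.6-fold, adjusted p = 4.88e-20). Gnao1, the G protein alpha subunit Go, which ON bipolar cells also use in their light response, stood at 1539 ± 57.9 CPM in the BCL and 1466 ± 35.7 in the GCL (adjusted p = 0.552), with 249.5 ± 65.0 in the ONL. Gnai2 was the gene called higher in the BCL, by 1.91-fold over the GCL (adjusted p = 2.2e-09). App, which binds the Gabbr1a form of the receptor, was 1.93-fold higher in the GCL than in the BCL (adjusted p = 4.2e-08).

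**Figure D5:**
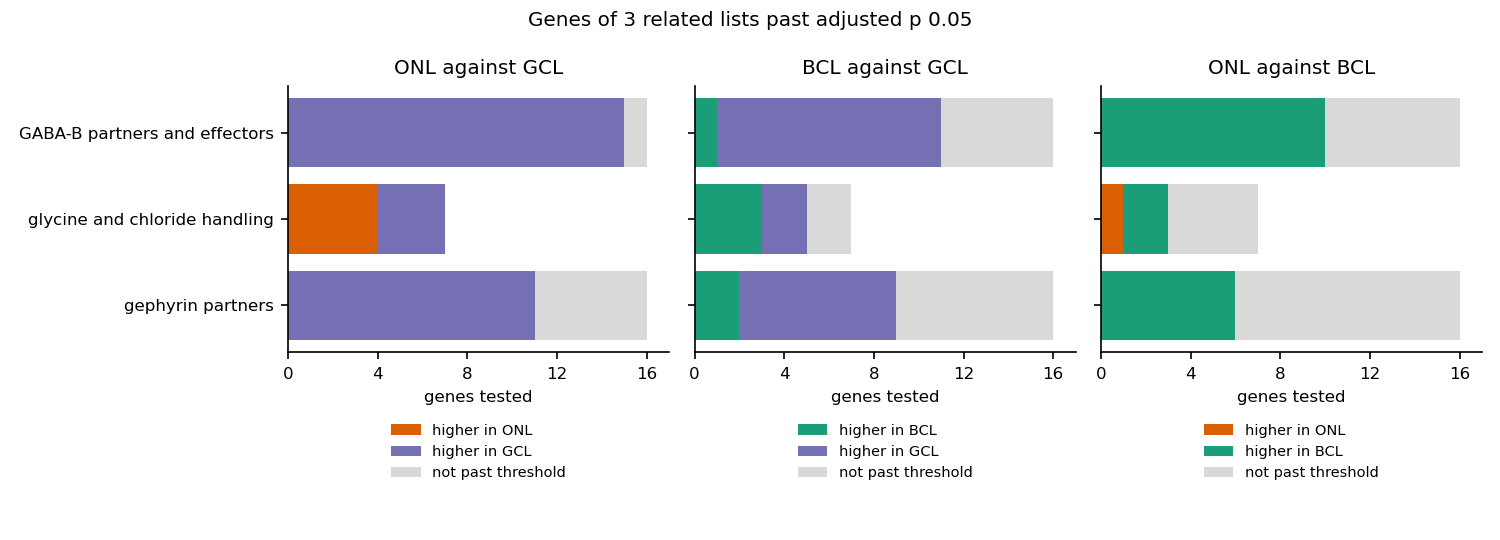
Number of genes tested in each of 3 related lists (x axis) that passed an adjusted p of 0.05 in each layer comparison, coloured by the layer with the higher level, with the rest in grey. The GABA-B list has 15 of 16 genes higher in the GCL than in the ONL, and the glycine and chloride list splits into 4 and 3.

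Whether the dopaminergic amacrine cells differ in these receptors from other amacrine cells is the question of the second experiment. In edgeR none of the 7 genes tested was called, with 0 at an unadjusted p under 0.05, beside calls for 0.83% of all 6021 genes. DESeq2 called 0 of 8, beside 43 of all 9846 genes it tested. With section as a replicate block, 148 of all genes were called instead of 50, and again 0 of these 7. The TH+ libraries held few UMIs of each gene, from 1 in all for Glra4 to 127 for Gabbr1. Leaving out each section in turn gave 29 to 73 calls over all genes, 29 without section 3 and 31 without section 5.

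Glra3 had the most UMIs of the alpha subunits in both amacrine groups. It had 10, 14, 1, 4 and 5 UMIs in the TH+ libraries, which is 204, 160.1, 23.5, 86.5 and 165 CPM, and 177.5, 109.9, 89.3, 135 and 119.8 CPM in the TH- libraries. The groups overlapped and their means were 128 ± 72.2 and 126 ± 33.1 CPM (SD, n = 5), with a log2 fold change of TH+ minus TH- of 0.05 ± 0.33 (adjusted p = 0.988). Beside these, the GCL libraries of the layer experiment held 22.2 to 49.5 CPM; the 2 tables were sequenced separately and were not tested against each other. Per kb, Glra3 took 27.0 ± 9.38% of the alpha level in TH+ cells and 21.6 ± 6.26% in TH- cells, and Glra2 took 48.7 ± 25.9% and 39.2 ± 12.9%.

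Glra2 had 102, 91.5, 47.1, 43.2 and 32.98 CPM in the TH+ libraries and 44.6 to 91.6 CPM in the TH- libraries (log2 fold change -0.17 ± 0.40, adjusted p = 0.955). Glra1 ranged from 0 UMIs, in TH+ sections 1 and 3, to 99.0 CPM in TH+ cells, and from 13.1 to 104 CPM in TH- cells (-0.51 ± 0.63, adjusted p = 0.899). Both subunits overlapped between the groups. Glra4 had 1 UMI over the 5 TH+ libraries and 12 over the 5 TH- libraries, with at least 1 in each TH- library. In CPM it was lower in TH+ than in TH- cells in 5 of 5 sections, with 0 UMIs in every TH+ library but that of section 2. The ratio of TH+ to TH- for Glra4 was 0.261, with a 95% counting interval of 0.00612 to 1.77, so a difference was not detectable at this depth.

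Glrb was lower in the TH+ library than in the TH- library of the same section in 5 of 5 sections. Its levels were 81.7, 194, 70.6, 64.9 and 99.0 CPM in TH+ cells and 118, 214, 141, 119.8 and 190.3 CPM in TH- cells. The ranges overlapped, and the log2 fold change was -0.45 ± 0.32 (adjusted p = 0.758). Marker shares also differed in 5 of 5 sections. The 9 rod markers together made up 1.44 to 3.68% of TH+ UMIs and 0.826 to 2.15% of TH- UMIs, higher in TH+ cells in each section. The 7 Muller glia markers (0.307 to 0.4505% against 0.424 to 0.689%) and the 8 amacrine markers (0.238 to 0.396% against 0.316 to 0.523%) were lower in TH+ cells in each section. None of these markers was at 0 in either group, and their part in the Glrb values was not tested. Gphn stood at 87.3 ± 47.8 CPM in TH+ and 93.7 ± 22.3 CPM in TH- cells (-0.03 ± 0.36, adjusted p = 0.99).

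Gabbr1 stood at 368, 446, 753, 476 and 528 CPM in the TH+ libraries and at 454, 365, 313, 464 and 522 CPM in the TH- libraries. It was higher in TH+ cells in 4 of 5 sections, with a log2 fold change of 0.24 ± 0.20 (adjusted p = 0.801). Gabbr2 ranged from 163 to 435 CPM in TH+ and from 155 to 335 CPM in TH- cells (0.19 ± 0.25, adjusted p = 0.908). The ratio of Gabbr1 to Gabbr2 per kb was 1.91 ± 1.22 in TH+ cells and 1.49 ± 0.632 in TH- cells. With those standard errors, the GABA-B subunits were the pair for which the amacrine comparison was most precise.

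In the related lists, 13 gephyrin partners, 7 glycine and chloride genes and 13 GABA-B partners were tested in the amacrine cells, and none was called, beside 0.83% of all genes (median log2 fold changes of -0.15, -0.11 and -0.09, beside -0.05 over all genes). Slc12a5 came closest, at 869.7 ± 140.5 CPM in TH+ and 1299 ± 272 CPM in TH- cells (log2 fold change -0.61 ± 0.17, adjusted p = 0.0722). With section as a replicate block, its log2 fold change was -0.57 ± 0.13 and its adjusted p 0.000628. The rod share was higher and the Muller glia and amacrine shares lower in the same TH+ libraries, and their part in this difference was not tested. Slc32a1 stood at 313 ± 97.4 and 317 ± 91.2 CPM (adjusted p = 0.948).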

How the data were processed

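Light-Seq libraries of the retina were analysed: 12 libraries of 3 layers and 10 of amacrine cells. The authors extracted UMI, barcode and cDNA sequence with UMI-tools 1.1.1, mapped it with STAR 2.7.9a to mouse vM27 (mm39), discarded multimapped reads, assigned reads to genes with featureCounts, removed 2 ribosomal RNA genes and collapsed UMIs per gene. The deposited counts are therefore whole numbers of UMIs without normalization. The gene lengths (exon bases) come from the deposited mouse tables of a cell mixing experiment. Its counts of the same 8 genes were described apart and entered no comparison of the retina. No per-sample column of the retina tables went unused (0).

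Layers were fitted together (12 libraries), as were amacrine cells (10 libraries), in edgeR 4.0.16 under R 4.3.3 by quasi-likelihood with TMM scaling, after filterByExpr with min.count 3 and min.total.count 10. Adjusted p follow Benjamini-Hochberg over all genes tested, at 0.05. Each SE was taken as the absolute log2 fold change over the root of the F statistic. DESeq2 1.42.0, other scalings and filters, a section block and each section left out were alternatives. CPM is scaled to 1000000 UMIs of the library, and comparisons between genes divide by the deposited exon length, or, as an alternative chosen after seeing the data, by the exon bases of GENCODE vM39. Counting intervals are exact binomial at 95%, and a count of 0 was read as up to 3 counts. They cover counting error alone. The fits were first tested on simulated data with 200 changed genes per comparison. In TH+ against TH- cells, 36% of 2-fold and 86% of 4-fold changes were recovered, with 8 false among 130 calls. In the layer comparisons, 43 to 74% of 2-fold and 84 to 96% of 4-fold changes were recovered.

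Same-numbered libraries come from the same section, by the library names and the study's methods, and so are paired. Their deviations from the group means correlated at 0.0116 to 0.0493 in the layers (12 pairs) and at 0.0287 to 0.257 in the amacrine cells (5 pairs), against -0.0609 to 0.0431 and -0.117 to 0.0418 for libraries of other sections.

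Positions and coding sequences were read from GENCODE vM39 on GRCm39 and aligned with MAFFT 7.526, and single-copy runs were counted over 32 bases. Promoters are RefSeq entries of GRCm38.p6 for 7 of the 8 genes.

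The 8 genes and the gene lists were chosen with earlier results of these data known. Named were the 8 genes, from each related list up to 4 genes with the smallest adjusted p in any layer comparison, any list gene called in amacrine cells, and for each of the 8 the 3 genes of most similar pattern (prior count 2, mean of at least 10 UMIs in the highest layer). Insyn2a, Slitrk3, Kcnj3, Slc6a5, Slc6a9 and Slc12a2 were named after their values were seen. A few genes that this rule selects are not reported here.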

Additional observations from a re-analysis of the deposited data

Results flagged for a closer look

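Of 40 sets of values (8 genes in 5 groups), 2 held a library far from the others of its group by Dixon's criterion, and about 1 in 20 would be flagged by chance. Both were the TH+ library of section 2. Glrb stood at 194 CPM there, against 64.9 to 99.0 CPM in the other 4 TH+ libraries. Glra4 stood at 11.4 CPM (1 UMI) there and at 0 in the other 4. With 0 in the other 4 any UMI is flagged, so this flag was fixed in advance and nothing is drawn from it.

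The mouse 3T3 fibroblasts of the cell mixing experiment, which the comparisons of the retina do not use, held UMIs of some of the 8 genes above the 3 that a count of 0 allows. Gabbr1 had 5, 8 and 9 UMIs in wells 1, 2 and 3, and 13 when well 2 was sequenced more deeply. Gphn had 5 and 8 UMIs in wells 2 and 3, and 8 in the deeper run of well 2. Glra1 had 4 UMIs in well 3, which is 20.1 CPM, and 0 in wells 1 and 2 and in the deeper run. Gabbr2, Glra2, Glra3 and Glra4 had 0 UMIs in each of the 4 runs, which held 135565 to 296198 UMIs.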

How the results depend on the processing

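Without Glra4, which entered the layer tests through its GCL counts, the counts of called genes were 4, 7, 7 and 0 for the ONL against the BCL, the ONL against the GCL, the BCL against the GCL and TH+ against TH- cells under every alternative run. This includes the fit without the ONL library of section 1, an alternative chosen after seeing the data, although Gabbr2 moved there from 2.16- to 3.75-fold against the BCL and from 9.71- to 16.9-fold against the GCL. Of these 7 genes, TH+ against TH- tested 5 with edgeR's default filter (not Glra1 or Glra2) and 6 without section 2 (not Glra1). The default filter left Glra4 out of every comparison. With section as a replicate block the counts stayed at 4, 7, 7 and 0, and the block changed no call of the genes named other than Slc12a5, but it raised the calls over all genes in TH+ against TH- cells from 50 to 148, and the share of them higher in TH+ cells fell from 90 to 64.9% (51.5% with no low-count filter). Leaving out each section gave 29 to 73 calls there, the lowest without section 3 (29) and section 5 (31). No called log2 fold change of the 7 changed sign. Differences that were not called did: for ONL minus BCL, Glra4 was -0.17 and Gphn -0.22 with library totals, and without each section Glra3 ranged from -0.86 to 0.55 and Glra4 from -0.32 to 0.67; for TH+ minus TH-, Glra3 was -0.10 with no low-count filter and Gphn 0.005 with DESeq2 size factors and 0.025 with the default filter, and without each section the ranges were -1.15 to 0.18 for Glra1 (4 fits, since it was not tested without section 2), -0.15 to 0.18 for Glra3, -0.165 to 0.087 for Gphn, -0.02 to 0.35 for Gabbr1 and -0.11 to 0.41 for Gabbr2. Without division by exon length, the Glra1 share of alpha UMIs was 28.9% in the GCL and 88.2% in the BCL, the GCL shares of Glra2, Glra3 and Glra4 were 35.1, 23.2 and 12.8%, so that Glra2 passed Glra1 and Glra3 passed Glra4, and the alpha to Glrb ratio in the BCL was 1.70. Depth limits Glra2, Glra3 and Glra4 in the BCL and ONL, and all 8 genes in TH+ cells.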
